A study of Mus musculus with 15 samples.

Results

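The BCL2 family decides whether a cell keeps its mitochondria intact or dies by apoptosis. The genes described here are 10 of its members, which were looked up by symbol and mapped to Ensembl identifiers: the survival genes Bcl2, Bcl2l1, Mcl1 and Bcl2a1b, the effector genes Bax and Bak1, and the BH3-only genes Bcl2l11, Bid, Pmaip1 and Bbc3. All 10 were found among the 38924 genes counted, and all 10 were among the 14456 genes that passed the filter of more than 1 CPM (reads counted on a gene, scaled to a common library total) in 3 or more libraries. RNA had been measured in 15 libraries of mononuclear phagocytes from naïve C57BL/6 mice aged 6 to 8 weeks by the sample labels, with 3 libraries for each of 5 sorted subtypes. The spleen gave CD8+ dendritic cells (DCs), which belong to the DC1 lineage, CD4+ DCs of the DC2 lineage and Ly6C+ monocytes, and CD103+ DCs of the DC1 lineage and CD11b+ DCs of the DC2 lineage came from lymph nodes (LNs) draining the lung. Each library held cells pooled from several female mice, and these pools are the replicates, so that the p values measure the spread between pools. Spleens and LNs came from different cohorts, a gate on high MHC class II restricted the LN sorts to DCs that had migrated there, and monocytes were enriched with CD11b beads whereas DCs were enriched with CD11c beads. An organ difference is therefore also a difference of cohort and gate, and these cannot be told apart. Each monocyte library was the sum of run 1 and run 2, whereas no DC library was split by run. A difference between monocytes and DCs is therefore also one of beads and runs, and these cannot be told apart either.

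BCL2, BCL-XL (the product of Bcl2l1), MCL1 and A1 (the product of Bcl2a1b and its copies) hold a cell alive by binding the pro-apoptotic members. BAX and BAK, once freed or activated, open the outer mitochondrial membrane, which releases cytochrome c and starts the caspases. BH3-only proteins such as BIM (Bcl2l11), BID, NOXA (Pmaip1) and PUMA (Bbc3) report stress and can occupy the groove of the survival proteins, and NOXA is best known for binding MCL1 and A1. BIM and BCL2 are known to set the lifespan of DCs, and A1 is a known target of NF-kB in myeloid cells.

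Mice carry several near-identical copies of the A1 gene on chromosome 9, and how far reads can tell them apart bears on every A1 value below. Bcl2a1b (ENSMUSG00000089929) lies on the plus strand at chr9:89199209-89207827 of GRCm38, Bcl2a1a (ENSMUSG00000093809) on the plus strand at chr9:88956920-88962416 and Bcl2a1d (ENSMUSG00000096581) on the minus strand at chr9:88723288-88731850. Their coding sequences are each 519 bases long in the GENCODE annotation, and 12 of these positions differ between the copies. Bcl2a1b differs from Bcl2a1a at 11 positions (97.9% identity) and from Bcl2a1d at 6 (98.8%). The first 60 coding bases, in the first exon, hold 6 of the 12 positions and are shown because they show how few letters separate the copies. Capitals mark the positions at which the copies are not all alike, and each sequence is written 5′ to 3′ on the strand of its gene (GRCm38, chr9:88957051-88957110 for Bcl2a1a, chr9:89199360-89199419 for Bcl2a1b and chr9:88731660-88731719 for Bcl2a1d).
Bcl2a1a: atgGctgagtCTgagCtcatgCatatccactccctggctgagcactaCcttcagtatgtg
Bcl2a1b: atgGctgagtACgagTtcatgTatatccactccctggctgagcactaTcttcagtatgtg
Bcl2a1d: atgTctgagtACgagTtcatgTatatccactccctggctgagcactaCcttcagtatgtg
Across its whole transcript, 68.9% of the windows of 100 bases in Bcl2a1b were found in neither of the other copies, against 56.5% in Bcl2a1a and 45.3% in Bcl2a1d. Since the authors kept uniquely mapped reads, reads from the remaining windows would be lost rather than split, and the value of a single copy understates A1 as a whole. Bcl2a1b also shares 401 of its 817 exon bases (49.1%) with Mthfs, an enzyme gene on the same strand, and a read in that stretch was counted for both.

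The sequence upstream of a gene's start was looked at for 9 of the 10 members, in 14 windows of 300 bases from RefSeq that run from 250 bases before to 50 bases after a start (GRCm38.p6). The 5 consensus motifs searched on both strands were the 10-letter NF-kB consensus, the FOXO motif TGTTTAC, the PU.1 motif GAGGAAGT, the AP-1 motif TGACTCA and the E-box CACGTG, none of which contains another. Among all 32851 windows in the table they were present in 4.51%, 3.65%, 3.2%, 5.2% and 7.15%, in this order. At least 1 window of Bcl2l1 and of Bbc3 held the NF-kB consensus, those of Bcl2l11 and Bbc3 the FOXO motif, those of Bcl2a1b and Bak1 the PU.1 motif and those of Bax and Bbc3 the E-box, while none held the AP-1 motif. Bcl2l1 and Bbc3 had 3 windows each, Bcl2l11 had 2 and the others 1, whereas the shares above are for a single window. Both other A1 copies carried the PU.1 motif too, although the Bcl2a1b window was only 73.8% identical to that of Bcl2a1a. The 3 windows below are shown because Bcl2l1, Bcl2a1b and Bbc3 are among the members that differed most between subtypes. The match is in capitals, and a match describes the letters and not a site of binding. The Bcl2a1b window (plus strand, chr9:89199023-89199322) carries the PU.1 motif 148 bases before the start, the Bcl2l1 window (minus strand, chr2:152830668-152830967) the NF-kB consensus 242 bases before it, and the Bbc3 window (plus strand, chr7:16310011-16310310) the FOXO motif 167 bases before it.
Bcl2a1b: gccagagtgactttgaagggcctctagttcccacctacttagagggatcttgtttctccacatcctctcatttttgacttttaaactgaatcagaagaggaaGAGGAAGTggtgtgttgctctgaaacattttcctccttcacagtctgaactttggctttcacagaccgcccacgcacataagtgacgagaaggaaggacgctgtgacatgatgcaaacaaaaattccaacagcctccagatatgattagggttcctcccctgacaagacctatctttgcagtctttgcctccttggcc
Bcl2l1: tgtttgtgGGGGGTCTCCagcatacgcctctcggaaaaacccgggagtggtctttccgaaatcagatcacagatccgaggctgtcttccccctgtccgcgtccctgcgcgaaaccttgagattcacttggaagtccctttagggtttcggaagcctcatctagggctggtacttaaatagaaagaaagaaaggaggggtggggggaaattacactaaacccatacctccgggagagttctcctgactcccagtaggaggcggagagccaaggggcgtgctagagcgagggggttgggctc
Bbc3: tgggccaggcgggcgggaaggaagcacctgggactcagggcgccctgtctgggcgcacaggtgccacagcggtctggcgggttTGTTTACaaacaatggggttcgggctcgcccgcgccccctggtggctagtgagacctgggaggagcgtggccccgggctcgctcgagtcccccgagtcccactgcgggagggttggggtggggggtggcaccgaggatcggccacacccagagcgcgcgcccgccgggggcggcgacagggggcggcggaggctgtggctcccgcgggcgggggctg

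Libraries held 4531243 to 10233914 counts on genes. Defining markers were read in the sorted subtypes. Xcr1, the chemokine receptor of DC1, reached 516 to 920 CPM in splenic CD8+ DCs. It was only 34.1 to 96.8 CPM in LN CD103+ DCs and at most 7.74 CPM in the DC2 subtypes. A sum of 5 DC2 genes came to 1423 to 2450 CPM in splenic CD4+ DCs and 799 to 883 CPM in LN CD11b+ DCs. In monocytes that sum was 2315 to 2627 CPM, and in the DC1 subtypes at most 174 CPM. Ccr7, which guides DCs to LNs, stood at 2168 to 4518 CPM in LN DCs and at most 228 CPM in splenic DCs. Ly6c2 reached 707 to 1017 CPM in monocytes. A sum of 6 monocyte genes came to 7160 to 7881 CPM in monocytes. In DCs that sum was 468 to 679 CPM for splenic CD4+, 553 to 671 CPM for LN CD11b+, 146 to 218 CPM for splenic CD8+ and 31.0 to 49.9 CPM for LN CD103+. Itgae, which encodes CD103, was low in LN CD103+ DCs (20.8 to 39.6 CPM) and higher in splenic CD8+ DCs (71.8 to 135 CPM). Of the other cell types, 10 T cell genes summed to 95.1 to 182 CPM in LN DCs, 4.18 to 27.3 CPM in splenic DCs and 0.787 to 3.82 CPM in monocytes, where 4 of the 10, Cd3e among them, had no count. A sum of 10 neutrophil genes came to 518 to 644 CPM in monocytes and at most 32.9 CPM in any DC library, and one of 8 macrophage genes to 35.2 to 69.3 CPM in monocytes and 171 to 842 CPM in DCs. The sum of 7 erythroid genes was 28.7 to 238 CPM in splenic DCs, 1.82 to 58.5 CPM in LN DCs and 4.08 to 5.70 CPM in monocytes. In all, 3 libraries stood apart from their replicates. LN CD103+ DC replicate 1 had a sum of 316 CPM for 10 B cell genes against 24.1 and 34.3 CPM in its replicates. Splenic CD4+ DC replicate 2 had the fewest detected genes among DCs (15292). LN CD11b+ DC replicate 3 was the shallowest library and had 5.53 CPM of the NK cell gene Ncr1 (at most 1.29 CPM in all others). A sum of 8 NK cell genes did not set that library apart. It was 70.1 CPM there, 66.1 and 47.7 CPM in its replicates and 79.6 to 118 CPM in splenic CD8+ DCs. The sum of 12 genes known to respond to tissue dissociation came to 3566 to 7483 CPM in splenic DCs, 12129 to 15015 CPM in LN DCs and 11480 to 12211 CPM in monocytes. The part of these genes and cells in the member results was not tested. In sorted bulk samples, fewer cells of a type and less RNA per cell cannot be told apart.

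One edgeR quasi-likelihood model over all 15 libraries called all 10 members for any difference, where 73.5% of all genes tested were called (Benjamini-Hochberg adjusted p under 0.05). Bax and Bak1 had the weakest evidence, with adjusted p of 0.0152 and 0.0176, and Bak1 was lost when monocyte replicate 2 was left out, and when the 3 libraries that stood apart were left out together. The members are taken by role, with CPM scaled by TMM given for replicates 1, 2 and 3 of each subtype.

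**Figure D1:**
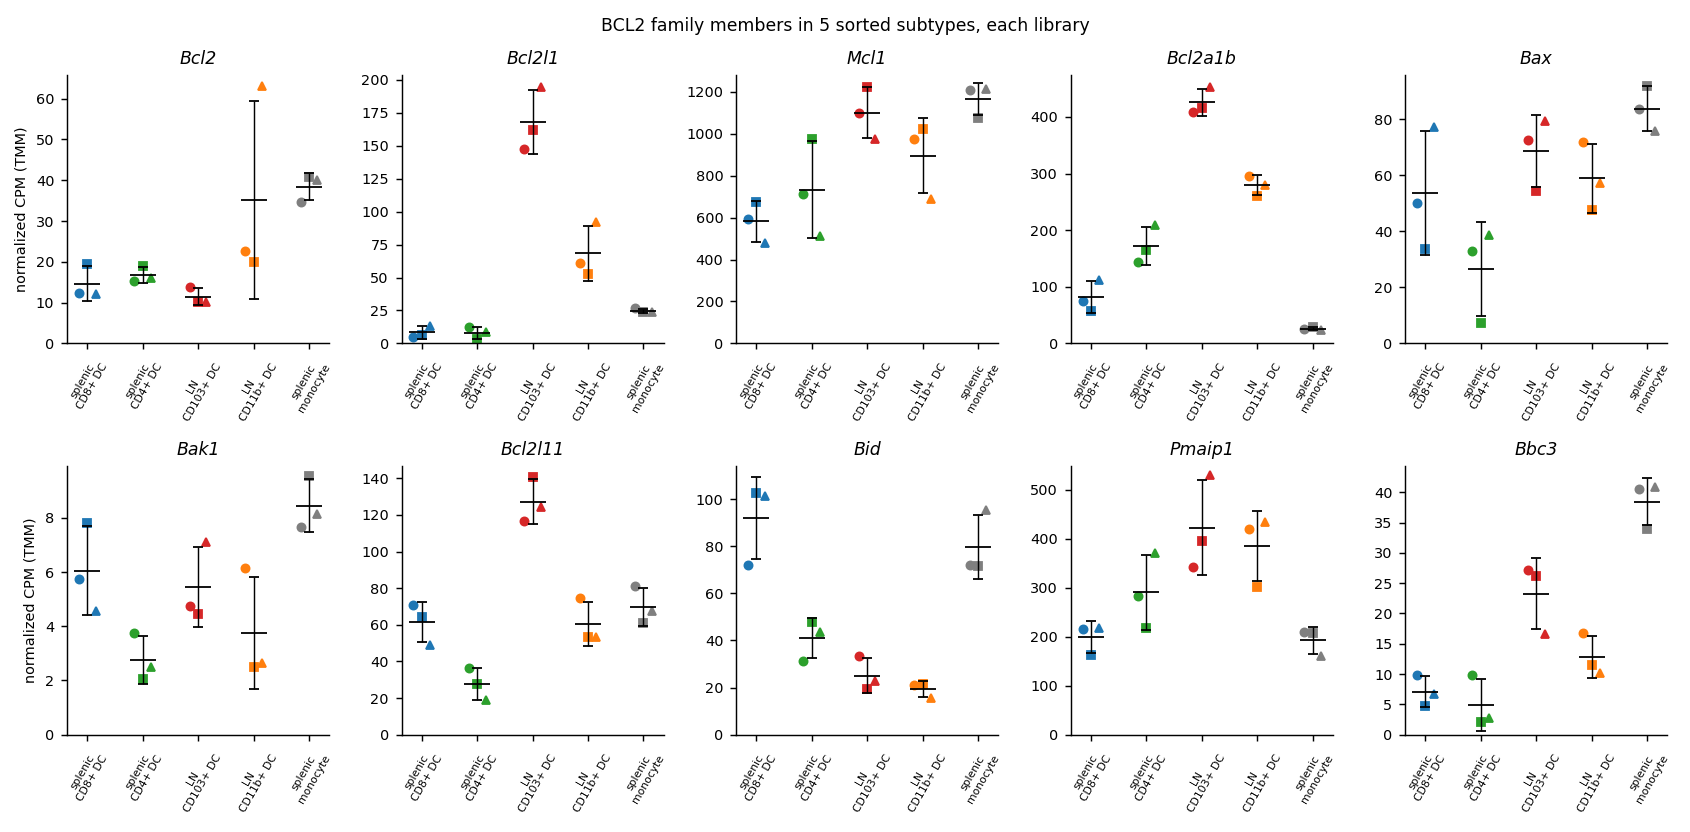
Normalized CPM (vertical axis, from 0, a separate scale for each gene) of the 10 members in the 5 subtypes, with circles, squares and triangles for replicates 1, 2 and 3 and bars for the mean ± SD (n = 3). Bcl2l1 and Bcl2a1b were higher in every LN DC library than in every other library, and Bid was lower in both LN DC subtypes than in splenic CD8+ DCs and monocytes.

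Bcl2l1 (ENSMUSG00000007659, chr2:152780668-152831728 of GRCm38) had the largest fold range of the members between DC subtype means. Splenic CD8+ DCs had 4.66, 6.75 and 13.5 CPM. Splenic CD4+ DCs were at 12.4, 3.41 and 8.99 CPM. LN CD103+ DCs reached 147, 162 and 195 CPM. Every LN CD103+ library lay above all libraries of the other subtypes. LN CD11b+ DCs lay between them at 60.8, 52.6 and 92.2 CPM, and monocytes at 26.6, 23.9 and 23.9 CPM. All splenic DC libraries lay below all monocyte libraries, and the counts of this gene ran from 20 in a splenic DC library to 1383 in an LN DC library. From LN CD103+ DCs to LN CD11b+ DCs to monocytes to splenic DCs, each step down passed the test (adjusted p = 0.0164, 0.00218 and 0.00217), while the splenic subtypes did not differ beyond their spread (log2 difference -0.00 ± 0.39 SE).

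Bcl2a1b had the same top order in DCs but was lowest in monocytes. LN CD103+ DCs had 409, 416 and 453 CPM. LN CD11b+ DCs had 296, 261 and 281 CPM. Splenic CD4+ DCs had 143, 166 and 209 CPM. No library of these 3 subtypes overlapped with another subtype. Splenic CD8+ DCs followed with 75.2, 56.8 and 113 CPM and monocytes with 25.4, 28.4 and 23.4 CPM. The top neighbours did not pass the test (adjusted p = 0.0731) and all lower steps did, at 0.0189, 0.00121 and 8.32e-06. Bcl2a1a and Bcl2a1d ran from 266.6 ± 41.3 and 173 ± 15.3 CPM in LN CD103+ DCs down to 14.5 ± 2.41 and 12.2 ± 1.97 CPM in monocytes (SD, n = 3), with the 5 subtypes in the same order as for Bcl2a1b. Mthfs, whose exon stretch is counted with Bcl2a1b, also had this order, from 482 ± 56.6 CPM in LN CD103+ DCs to 65.3 ± 8.96 CPM in monocytes. Its part in the Bcl2a1b values was not tested.

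**Figure D2:**
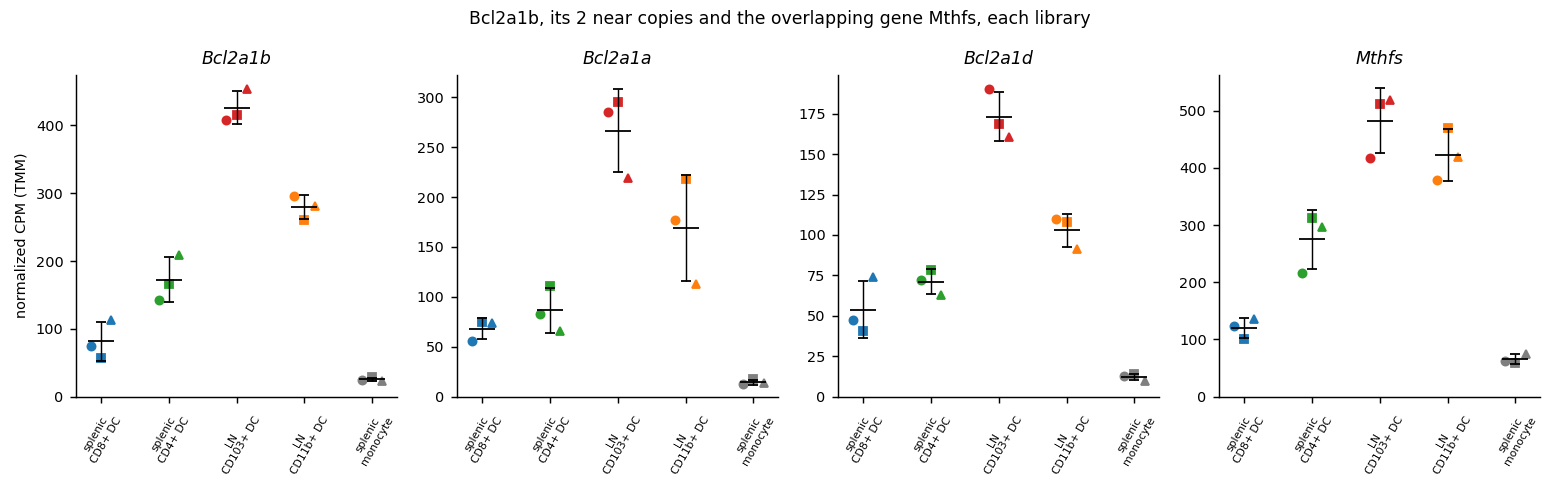
Normalized CPM (vertical axis, from 0, a separate scale for each gene) of Bcl2a1b, its near copies Bcl2a1a and Bcl2a1d and the overlapping gene Mthfs in the 5 subtypes, with circles, squares and triangles for replicates 1, 2 and 3 and bars for the mean ± SD (n = 3). All 4 genes were highest in LN CD103+ DCs and lowest in monocytes.

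Mcl1 (ENSMUSG00000038612, chr3:95658721-95663176), which encodes a survival protein that turns over fast, was highest in monocytes and lowest in splenic CD8+ DCs. Monocytes had 1206, 1076 and 1215 CPM. LN CD103+ DCs had 1100, 1223 and 977 CPM. LN CD11b+ DCs had 976, 1021 and 690 CPM. LN CD103+ DCs overlapped with both other subtypes, and every monocyte library was above every LN CD11b+ library. Splenic CD4+ DCs had 712, 972 and 513 CPM and splenic CD8+ DCs 593, 673 and 479 CPM. No pair of neighbours in this order passed the test, although the ends did: monocytes were 2.00 times above splenic CD8+ DCs (log2 1.00 ± 0.23, adjusted p = 0.00161).

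Bcl2 (ENSMUSG00000057329, chr1:106538178-106714274) had lower means in LN CD103+ and splenic DCs than in LN CD11b+ DCs and monocytes. Splenic CD8+ DCs had 12.3, 19.6 and 12.1 CPM. Splenic CD4+ DCs had 15.3, 18.9 and 15.98 CPM. In LN CD103+ DCs it was at 13.8, 10.2 and 10.3 CPM. The splenic subtypes overlapped, and every LN CD103+ library was below every splenic CD4+ library. LN CD11b+ DCs had 22.6, 19.9 and 63.2 CPM, where the high value was that of replicate 3, the shallowest library. Monocytes had 34.6, 40.7 and 40.0 CPM. Every monocyte library was above every library of LN CD103+ and splenic DCs, and the monocytes fell inside the range of LN CD11b+ DCs. Of the Bcl2 exon bases 7.76% lie opposite D630008O14Rik and the counting ignored strand. The part of that gene in the Bcl2 values was not tested.

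On a scale per length, the authors' TPM (each gene's counts per exon base, on a common total), the survival members made up different mixtures in the subtypes. Mcl1 was ahead of Bcl2a1b in monocytes (865 ± 79.6 against 81.2 ± 6.88 TPM, SD, n = 3), and Bcl2a1b was ahead of Mcl1 in LN CD103+ DCs (1179 ± 90.4 against 712 ± 63.0 TPM). Mcl1 was 88.7% ± 1.43 of the summed TPM of the 4 genes in monocytes (SD, n = 3), against 36.1% ± 3.75 for LN CD103+, 41.3% ± 6.11 for LN CD11b+, 48.9% ± 11.3 for splenic CD4+ and 61.9% ± 11.8 for splenic CD8+ DCs. Bcl2a1b had the larger share in LN CD103+ DCs (59.6% ± 3.24) and LN CD11b+ DCs (55.4% ± 4.64), and its share overlapped with that of Mcl1 in splenic CD4+ DCs (50.1% ± 11.2) and was 36.7% ± 11.7 in splenic CD8+ DCs and 8.40% ± 1.25 in monocytes. Bcl2l1 never took more than 4.82% in a library and Bcl2 never more than 1.60%. The summed TPM itself was 1977 ± 55.5 for LN CD103+ and 1483 ± 104 for LN CD11b+ DCs, 1052 ± 61.2 for splenic CD4+ and 651 ± 26.3 for splenic CD8+ DCs, and 974 ± 76.1 for monocytes. With the TPM of the other A1 copies added to that of Bcl2a1b, the A1 share became 75.2% ± 1.26 in LN CD103+ DCs, 59.3% ± 9.07 in splenic CD8+ DCs and 15.9% ± 2.54 in monocytes. The ratio of Bcl2l1 to Bcl2 TPM ran from 16.7 to 29.7 in LN CD103+ libraries, from 2.29 to 4.22 in LN CD11b+ libraries, and from 0.283 to 1.75 in all splenic libraries. These shares were given no test. Of the exon bases of Bcl2a1b, 49.1% are also counted for Mthfs, so that Mthfs reads there enter its TPM and share. The part of Mthfs in these values was not tested.

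**Figure D3:**
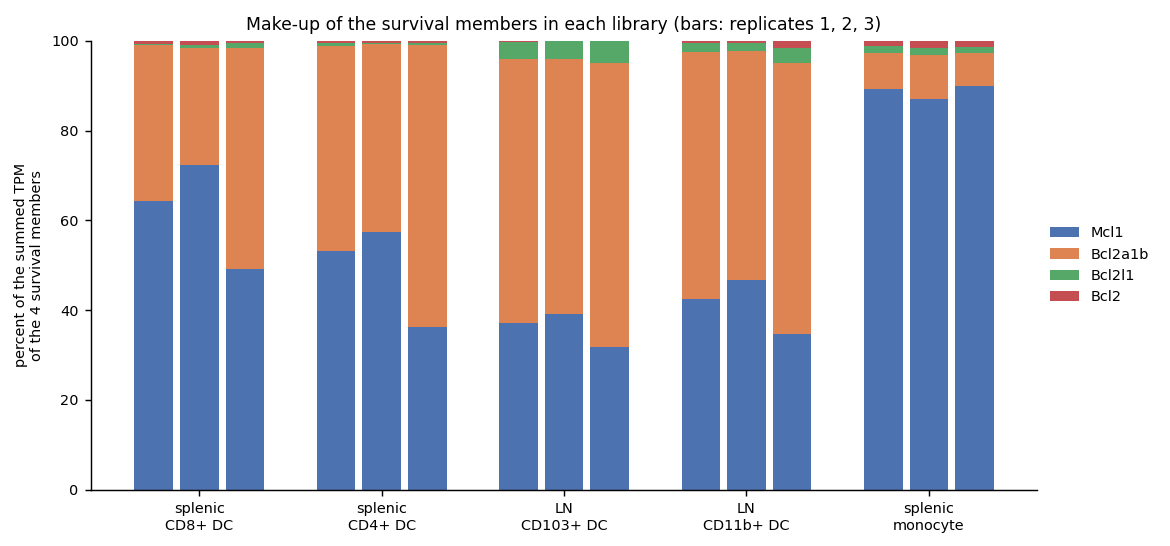
Share of each of the 4 survival members in their summed TPM (vertical axis, percent, 0 to 100), 1 bar for each library, 3 bars for each subtype. Mcl1 filled 87.1% to 89.8% of each monocyte bar, and Bcl2a1b filled 51.0% to 63.1% of each LN DC bar. Reads in the exon stretch shared with Mthfs are included in Bcl2a1b.

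Bax (ENSMUSG00000003873, chr7:45461695-45466898) ranged from 75.8 to 91.6 CPM in monocytes. It had 54.4 to 79.4 CPM among LN CD103+, 47.5 to 71.96 CPM among LN CD11b+, 33.7 to 77.2 CPM among splenic CD8+ and 7.33 to 38.8 CPM among splenic CD4+ DCs, which overlapped with splenic CD8+ DCs and lay below every library of the other subtypes. The 7.33 CPM was that of splenic CD4+ DC replicate 2, the library with few detected genes. Bak1 (ENSMUSG00000057789, chr17:27019810-27029009) was at most 9.52 CPM in any library, on 12 to 98 counts, so that only large differences of this gene were detectable at this depth. Of the Bak1 exon bases 14.8% lie opposite Ggnbp1 and the counting ignored strand. The part of that gene in the Bak1 values was not tested. No neighbours in the order of either effector passed the test. In TPM, Bax was the more abundant effector in every subtype, at 248 ± 21.5 against 9.05 ± 0.77 for Bak1 in monocytes and 79.3 ± 54.1 against 2.89 ± 1.08 in splenic CD4+ DCs.

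Bcl2l11 (ENSMUSG00000027381, chr2:128126038-128162547) set the LN CD103+ DCs and the splenic CD4+ DCs apart. In LN CD103+ DCs it was at 117, 141 and 124 CPM. Splenic CD4+ DCs had 36.2, 27.4 and 18.98 CPM. These were the highest and the lowest 3 libraries of all. Monocytes (81.2, 60.9 and 67.6 CPM), splenic CD8+ DCs (71.0, 64.2 and 49.2 CPM) and LN CD11b+ DCs (74.4, 53.4 and 53.5 CPM) overlapped between these ends. The steps at both ends passed the test (adjusted p = 0.00369 and 0.00103).

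Bid (ENSMUSG00000004446, chr6:120891930-120916853), whose product links death receptors to mitochondria once caspase-8 has cut it, was lower in both LN subtypes than in splenic CD8+ DCs and monocytes. Splenic CD8+ DCs had 71.96, 102.7 and 101 CPM. Monocytes had 72.2, 71.6 and 95.4 CPM. Splenic CD4+ DCs had 31.4, 47.7 and 43.8 CPM. All splenic DC1 and monocyte libraries lay above all splenic DC2 libraries. LN CD103+ DCs had 33.2, 19.2 and 22.9 CPM and LN CD11b+ DCs 21.1, 21.7 and 15.7 CPM. The step from splenic CD4+ to LN CD103+ DCs passed (adjusted p = 0.0233) although 1 pair of libraries crossed. Of its exon bases 17.7% lie opposite Bcl2l13 and the counting ignored strand. Bcl2l13 had subtype means of 27.4 to 39.4 CPM, and its part in the Bid values was not tested.

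Pmaip1 (ENSMUSG00000024521, chr18:66458604-66465550) had the highest mean TPM of the BH3-only members in every subtype, from 181 ± 33.7 TPM in splenic CD8+ to 362 ± 89.7 TPM in LN CD103+ DCs. Its CPM ran from 342 to 530 for LN CD103+, from 302 to 433 for LN CD11b+, from 217 to 371 for splenic CD4+ and from 162 to 218 for splenic CD8+ DCs, and from 161 to 209 for monocytes, and no neighbours in this order passed the test. Bbc3 (ENSMUSG00000002083, chr7:16309616-16318205) was highest in monocytes, at 40.5, 34.0 and 40.8 CPM. It stood at 27.2, 26.1 and 16.6 CPM in LN CD103+ DCs. LN CD11b+ DCs had 16.8, 11.4 and 10.2 CPM, splenic CD8+ DCs 9.80, 4.72 and 6.64 CPM and splenic CD4+ DCs 9.80, 2.05 and 2.83 CPM. Every monocyte library was above every DC library for Bbc3, and every LN DC library was above every splenic DC library.

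The first comparison asks how DC1 that have reached the LN differ from DC1 resident in the spleen. In LN CD103+ DCs, 6 members were higher than in splenic CD8+ DCs and 1 was lower, so that 7 of 10 were called where 45.6% of all genes tested were (23.8% higher and 21.8% lower). Among the survival genes, Bcl2l1 was 20.1-fold higher (log2 4.33 ± 0.40 SE, adjusted p = 5.91e-08), Bcl2a1b 5.22-fold higher (2.38 ± 0.23, adjusted p = 9.75e-08) and Mcl1 1.89-fold higher (0.92 ± 0.23, adjusted p = 0.00293). Bcl2 did not pass the test (-0.36 ± 0.35). Survival and death genes moved up side by side: of the BH3-only genes Bbc3 was 3.29-fold higher (1.72 ± 0.41, adjusted p = 0.00224), Pmaip1 2.12-fold (1.09 ± 0.23, adjusted p = 0.00082) and Bcl2l11 2.07-fold (1.05 ± 0.23, adjusted p = 0.00101), whereas Bid was 3.67-fold lower (-1.88 ± 0.25, adjusted p = 5.17e-06). Neither effector passed, with 0.36 ± 0.39 for Bax and -0.16 ± 0.40 for Bak1. The members had a median log2 difference of 0.98, against 0.00 over all genes. All 7 calls were also made when the 3 libraries that stood apart were left out, with Bcl2l1 at 4.40 and Bcl2a1b at 2.404 on the log2 scale.

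The same question in DC2 compared LN CD11b+ with splenic CD4+ DCs. Again 6 members were higher and 1 lower, 7 of 10 against 33.1% of all genes tested (19.3% higher and 13.8% lower), with a median log2 difference of 0.88 against 0.05. Bcl2l1 was 8.15-fold higher (3.03 ± 0.38, adjusted p = 6.85e-06), Bcl2l11 2.19-fold higher (1.13 ± 0.24, adjusted p = 0.00103) and Bid 2.09-fold lower (-1.06 ± 0.25, adjusted p = 0.00262). These 3 calls held in every alternative that was run. The other 4 were weaker. Bcl2 was 2.08-fold higher (1.06 ± 0.35, adjusted p = 0.0249), but only 0.35 on the log2 scale without LN CD11b+ DC replicate 3 (adjusted p = 0.350), and it also missed the threshold without splenic CD4+ DC replicate 1 or 3 (0.0746 and 0.0583). Bax was 2.23-fold higher (1.16 ± 0.40, adjusted p = 0.032), and 0.72 on the log2 scale without splenic CD4+ DC replicate 2 (adjusted p = 0.0746), with calls also lost without LN CD11b+ DC replicate 1 or 3 (0.114 and 0.0519). Bbc3 was 2.56-fold higher (1.36 ± 0.43, adjusted p = 0.021) and lost its call without splenic CD4+ DC replicate 2 or 3 or LN CD11b+ DC replicate 1 (0.0871, 0.0786 and 0.0999), and it was 2.395 on the log2 scale without splenic CD4+ DC replicate 1. Bcl2a1b was 1.62-fold higher (0.69 ± 0.22, adjusted p = 0.0189) and lost its call without splenic CD4+ DC replicate 1 or LN CD11b+ DC replicate 1 (0.0791 and 0.0575). Without the 3 libraries that stood apart, 4 members were called: Bcl2l1 (now 2.36), Bcl2l11, Bid and, in addition, Mcl1 (log2 0.67, adjusted p = 0.0319). In a fit of only these subtypes, the 3 calls of Bcl2l1, Bcl2l11 and Bid were left. Mcl1 (0.29 ± 0.23), Pmaip1 (0.41 ± 0.23) and Bak1 (0.46 ± 0.43) did not pass in the model over all subtypes.

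**Figure D4:**
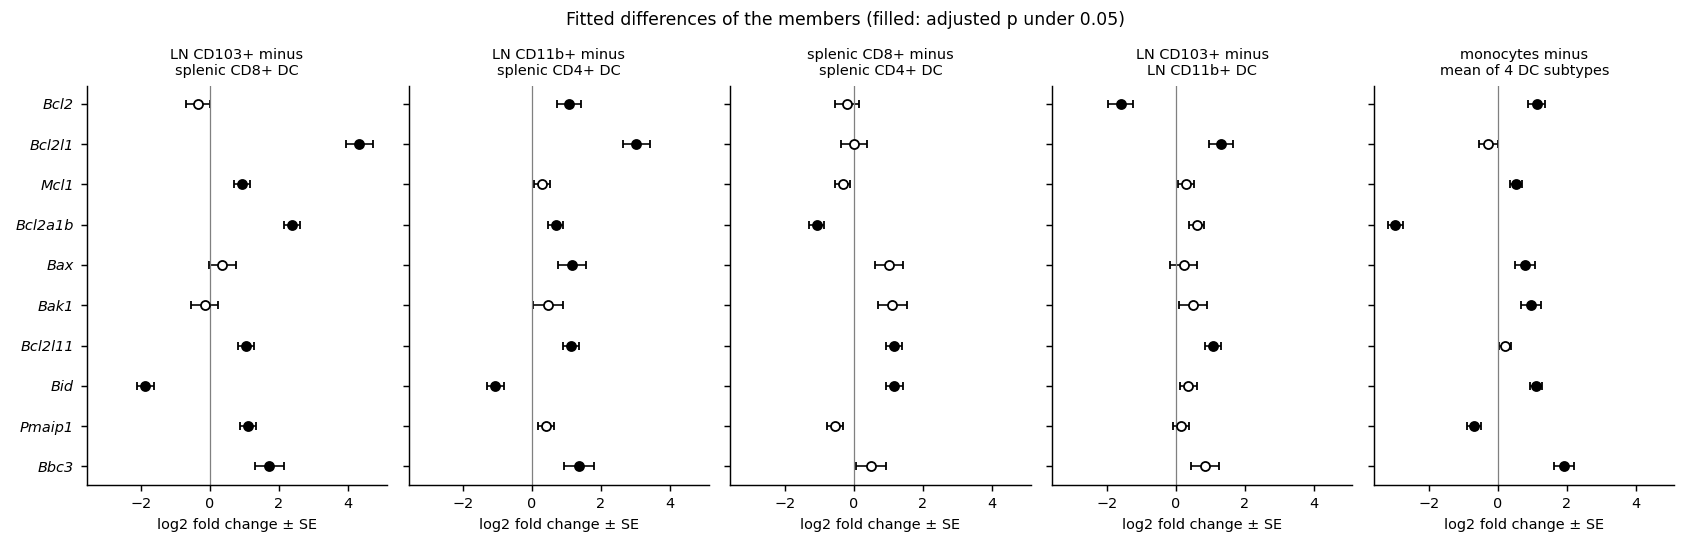
Fitted log2 fold changes (horizontal axis, same scale in each panel) of the 10 members in 5 comparisons, with bars for ± 1 SE and filled points for an adjusted p under 0.05 in edgeR's quasi-likelihood test. Bcl2l1 at 4.33 and 3.03 was the farthest right in both organ comparisons, and Bcl2a1b at -2.97 the farthest left in monocytes.

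Whether the organ difference depended on lineage was tested by the interaction, the difference in DC1 minus that in DC2. Of the 10 members 1 was called, where 11.2% of all genes tested were (5.17% upward and 6.03% downward). It was Bcl2a1b, whose organ difference was 3.23 times larger in DC1 (log2 1.69 ± 0.31, adjusted p = 0.00135). Bcl2l1 had an interaction of 1.30 ± 0.52 (adjusted p = 0.118), which passed when splenic CD8+ DC replicate 3 (1.85, adjusted p = 0.0234) or splenic CD4+ DC replicate 2 (1.66, adjusted p = 0.0246) was left out. That of Bcl2 was -1.42 ± 0.50 (adjusted p = 0.0746), and it passed without LN CD11b+ DC replicate 1 or 2 (0.046 and 0.0276) but fell to -0.70 without replicate 3. Mcl1 at 0.63 ± 0.32, Pmaip1 at 0.68 ± 0.32 and Bid at -0.81 ± 0.34 did not pass. Without the 3 libraries that stood apart, 4 members were called, Bcl2a1b, Bcl2l1 (2.04), Pmaip1 (1.12) and Bid (-1.28).

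Within the spleen, DC1 and DC2 differed in 3 members of 10, against 27.4% of all genes tested (13.1% higher and 14.4% lower in CD8+ DCs). Splenic CD8+ DCs had 2.22-fold more Bcl2l11 (1.15 ± 0.24, adjusted p = 0.00124) and 2.25-fold more Bid (1.17 ± 0.24, adjusted p = 0.00135) than splenic CD4+ DCs, and 2.11-fold less Bcl2a1b (-1.08 ± 0.22, adjusted p = 0.00121). Bax (1.02 ± 0.40, adjusted p = 0.0635), Bak1 (1.11 ± 0.42, adjusted p = 0.056) and Pmaip1 (-0.54 ± 0.23, adjusted p = 0.0875) missed the threshold in this fit. With the replicate number as a block, which pairs these libraries by their correlation, all 3 passed (adjusted p = 0.0172, 0.0492 and 0.0481), so that 6 members were called. The Bax difference passed without splenic CD8+ DC replicate 2 or splenic CD4+ DC replicate 3 (adjusted p = 0.0399 and 0.0231). That of Bak1 passed without splenic CD4+ DC replicate 1 or LN CD11b+ DC replicate 1 (0.0402 and 0.0371), and that of Pmaip1 without splenic CD4+ DC replicate 2 (0.0361). Bbc3 passed at 1.53 without splenic CD4+ DC replicate 1 (adjusted p = 0.0095), against 0.49 ± 0.44 with all libraries.

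Within the LN the lineages also differed in 3 members, against 12.9% of all genes tested (5.22% higher and 7.73% lower in CD103+ DCs). LN CD103+ DCs had 2.46-fold more Bcl2l1 (1.30 ± 0.34, adjusted p = 0.0164) and 2.10-fold more Bcl2l11 (1.07 ± 0.23, adjusted p = 0.00369), and 3.05-fold less Bcl2 (-1.61 ± 0.35, adjusted p = 0.0045), than LN CD11b+ DCs. The Bcl2 difference was -0.90 without LN CD11b+ DC replicate 3 and still passed. That of Bcl2l1 did not pass without LN CD103+ DC replicate 3 or LN CD11b+ DC replicate 1 or 2 (adjusted p = 0.0659, 0.0691 and 0.0804). Bcl2l11, the one member called between the lineages in both organs, was higher in DC1 each time. Bcl2a1b (0.61 ± 0.22, adjusted p = 0.0731) passed with the replicate block (adjusted p = 0.0385) and without splenic CD8+ DC replicate 3 (adjusted p = 0.0314).

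Monocytes were compared with the mean of the 4 DC subtypes. Of the members 6 were higher and 2 lower, 8 of 10 against 52.9% of all genes tested (26.4% higher and 26.5% lower), with a median log2 difference of 0.65 against -0.06. Bcl2a1b was 7.85-fold lower in monocytes (-2.97 ± 0.21, adjusted p = 1.06e-09) and Pmaip1 1.62-fold lower (-0.69 ± 0.19, adjusted p = 0.00508). Higher were Bbc3 (3.77-fold, 1.91 ± 0.28, adjusted p = 1.5e-05), Bcl2 (2.18-fold, 1.12 ± 0.25, adjusted p = 0.00102), Bid (2.16-fold, 1.11 ± 0.18, adjusted p = 3.16e-05), Bak1 (1.95-fold, 0.97 ± 0.30, adjusted p = 0.0108), Bax (1.71-fold, 0.77 ± 0.29, adjusted p = 0.0324) and Mcl1 (1.45-fold, 0.53 ± 0.17, adjusted p = 0.0148). Bcl2l1 (-0.27 ± 0.29) and Bcl2l11 (0.22 ± 0.18) did not pass, and the mean hides that Bcl2l1 in monocytes was 2.97-fold above splenic CD8+ DCs and 2.76-fold below LN CD11b+ DCs (adjusted p = 0.00217 and 0.00218). Apart from Bcl2a1b, each called member missed the threshold against some DC subtype. Examples against splenic CD8+ DCs were Bid (log2 -0.21, adjusted p = 0.516), Bak1 (0.49, 0.341) and Pmaip1 (-0.05, 0.895). Examples against LN CD103+ DCs were Mcl1 (0.08, 0.781), Bax (0.29, 0.556) and Bbc3 (0.72, 0.132). Bcl2 missed it against LN CD11b+ DCs (0.14, 0.753). Leaving out monocyte replicate 3 removed the calls of Mcl1, Bax and Pmaip1 (adjusted p = 0.0635, 0.0603 and 0.0503). The call of Mcl1 was also lost without monocyte replicate 1 (0.0599), that of Bak1 without monocyte replicate 2 (0.0668), and that of Bax without monocyte replicate 1 or 2 or splenic CD8+ DC replicate 2 (0.0835, 0.12 and 0.0526).

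Against single subtypes, which share the monocyte or DC libraries with the comparisons above, all 10 members were called between monocytes and splenic CD4+ DCs, 8 higher and 2 lower in monocytes, where 48.0% of all genes were (23.8% higher, 24.2% lower). Against splenic CD8+ DCs 4 were higher and 1 lower (42.1% of all genes, 20.4% higher and 21.7% lower). Monocytes had 2 members higher and 4 lower than LN CD103+ DCs (53.2% of all genes, 24.6% and 28.6%), and 3 higher and 3 lower than LN CD11b+ DCs (47.8%, 21.3% and 26.5%). Bcl2a1b was lower in monocytes each time, by 4.05 on the log2 scale against LN CD103+ and by 1.66 against splenic CD8+ DCs. Across both organ and lineage, LN CD103+ DCs had 6 members higher and 1 lower than splenic CD4+ DCs (47.0% of all genes, 24.8% and 22.2%), and LN CD11b+ DCs 5 higher and 1 lower than splenic CD8+ DCs (39.9%, 22.5% and 17.3%), Bid being the lower one both times.

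A further 60 genes of cell death were read in the same comparisons, of which 56 were tested. In LN CD103+ against splenic CD8+ DCs, 6 of the 18 genes of the apoptosome, caspases and their inhibitors were higher and 6 lower, where 45.6% of all genes were called (23.8% higher and 21.8% lower). Birc2, an inhibitor of apoptosis that acts in TNF receptor signalling, was at 987 ± 176 against 61.0 ± 7.11 CPM (log2 4.02 ± 0.23, adjusted p = 2.82e-10), and Birc5 (survivin, expressed by dividing cells) at 0.828 ± 0.531 against 21.7 ± 7.54 CPM (-4.74 ± 0.62, adjusted p = 4.69e-06). Casp6, an executioner caspase, was lower as well (-2.84 ± 0.35, adjusted p = 2.86e-06). Of the 12 genes of death receptors and necroptosis 5 were higher and 2 lower, and of the 14 regulators, such as p53 and FOXO genes, 6 were higher and 2 lower, with Cdkn1a (the p53 target p21) at 243.5 ± 36.5 against 15.6 ± 8.13 CPM (3.96 ± 0.31, adjusted p = 8.19e-09). Of the 12 other BCL2 family genes tested 5 were called, each of them higher.

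In the DC2 organ comparison 4 genes of the apoptosome list were higher and 5 lower, 4 and 3 of the death receptor list, 4 and 2 of the regulators and 5 and 1 of the other family genes, where 33.1% of all genes were called (19.3% higher and 13.8% lower). Cdkn1a (4.57 ± 0.33, adjusted p = 8.73e-09) and the death receptor gene Fas (3.69 ± 0.27, adjusted p = 1.09e-08) were the largest increases among genes of at least 10 CPM, and Birc5 (-3.10 ± 0.57, adjusted p = 0.000335) and the TNF receptor gene Tnfrsf1a (-1.57 ± 0.19, adjusted p = 5.11e-06) the largest decreases. Fas rose from 15.4 ± 4.40 CPM in the splenic subtype to 198 ± 71.1 CPM in that of the LN. These genes and the members were compared on the same libraries.

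Between the lineages in the spleen, 7 of the 12 other family genes were called (4 higher and 3 lower in CD8+ DCs), 7 of the 18 apoptosome genes (3 and 4), 6 of the 12 death receptor genes (2 and 4) and 3 of the 14 regulators (2 and 1), where 27.4% of all genes were called. Bcl2l14, a further BCL2 relative, was 2.99 ± 0.25 higher on the log2 scale in the CD8+ subtype (adjusted p = 6.65e-08) and Casp6 1.95 ± 0.34 (adjusted p = 0.0003), while Foxo3, whose product is known to induce Bcl2l11 and Bbc3, was lower (-1.06 ± 0.29, adjusted p = 0.00987), as was Birc2 (-1.05 ± 0.21, adjusted p = 0.000974). In the LN 3 of the 56 genes were called, against 12.9% of all genes, Bcl2l14 (2.54 ± 0.23, adjusted p = 6.3e-07) and Bcl2a1d (0.75 ± 0.21, adjusted p = 0.0234) higher in CD103+ DCs and Tnfrsf1a lower (-0.74 ± 0.20, adjusted p = 0.0169). Bcl2l14 had 293 ± 37.8 CPM in the DC1 of the LN and 79.8 ± 7.03 CPM in those of the spleen, against 50.3 ± 7.49 and 10.01 ± 0.492 CPM in the DC2 of the same organs and 1.29 ± 0.833 CPM in monocytes. For the interaction, where 11.2% of all genes were called (5.17% upward and 6.03% downward), 4 of the 12 other family genes were called (2 upward and 2 downward). So were 4 of the 18 apoptosome genes (2 and 2), 5 of the 12 death receptor genes (4 and 1) and 0 of the 14 regulators. Among those that reached 10 CPM on average in any subtype, monocytes included, the largest upward were Birc2 (1.41 ± 0.29, adjusted p = 0.0036) and Bmf (1.44 ± 0.45, adjusted p = 0.045). The largest downward were Ripk3 (-1.97 ± 0.57, adjusted p = 0.0301) and Bnip3 (-1.77 ± 0.56, adjusted p = 0.0475). Bnip3 reached this level only in monocytes (12.9 CPM), which are no part of the interaction. Its DC subtype means were 2.64 to 7.53 CPM. Casp6 followed downward (-1.67 ± 0.49, adjusted p = 0.0324), with a mean of 92.4 CPM in splenic CD8+ DCs.

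In monocytes against DCs, 3 of the 12 other family genes were higher and 3 lower, 5 and 7 of the 18 apoptosome genes, 4 and 4 of the 12 death receptor genes and 3 and 6 of the 14 regulators, where 52.9% of all genes were called (26.4% higher and 26.5% lower). Mlkl, which executes necroptosis, was at 17.2 ± 1.33 CPM in monocytes and 0.619 to 2.68 CPM on average in the DC subtypes (log2 4.05 ± 0.40, adjusted p = 8.18e-08), and Tnfrsf1a was at 371 to 430 CPM against means of 22.8 to 113 CPM (2.85 ± 0.13, adjusted p = 1.94e-12). Bcl2l14 (-5.38 ± 0.28, adjusted p = 1.41e-11) and Bcl2a1a (-3.13 ± 0.24, adjusted p = 3.23e-09) were the largest decreases among genes of at least 10 CPM.

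Over the 15 libraries, the log2 CPM of Bcl2a1b was most like that of Mreg and Plxnc1 (Pearson r = 0.985 and 0.978) and that of Bcl2l1 most like Dok1 and Rnf115 (0.981 and 0.974). For Bid the closest were Camk1d and Treml4 (0.966 and 0.963), for Mcl1 Grina and Chp1 (0.968 and 0.943), for Bcl2l11 Zc3h7a and Nsmf (0.960 and 0.933) and for Bbc3 Ip6k1 and Tbc1d20 (0.952 and 0.949). Those of Pmaip1 were Gadd45g and Rrad (0.935 and 0.922), those of Bax Arpc5 and S100a13 (0.972 and 0.969), those of Bak1 Jmjd6 and Tlnrd1 (0.961 and 0.937) and those of Bcl2 Xylt2 and Homer1 (0.865 and 0.860). Among the members themselves, Bcl2a1b and Pmaip1 were the most alike pair (r = 0.864) and Bid and Pmaip1 the least (-0.891). These values describe libraries that share subtypes and the cohorts of mice, and are no test.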

How the data were processed

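RNA-seq of 15 murine libraries was used, and sample titles gave the 5 sorted subtypes. For the deposited counts the authors aligned Ion Torrent reads with STAR 2.4.0j (mm10) and ran featureCounts (Subread 1.5.2) on Ensembl genes without strand, keeping unique alignments and giving a read in overlapping genes to each gene. The authors' deposited TPM were computed from the counts and exon lengths. Symbols came from GENCODE vM21. In R 4.3.3, edgeR 4.0.16 fitted 1 quasi-likelihood model of the subtypes to 14456 genes above 1 CPM in 3 or more libraries (TMM factors 0.883 to 1.1, common dispersion 0.0681, 10 residual degrees of freedom). Benjamini-Hochberg adjustment ran over all genes tested (threshold 0.05). A standard error is the log2 fold change divided by the square root of the test's F value. The fit was tested on simulated data. Alternatives used limma 3.58.1 on log2(TPM + 1), DESeq2 1.42.0, RLE size factors, other filters, a replicate block, only the subtypes compared, each library left out and, added after seeing the data, the 3 libraries that stood apart left out together. Libraries with the same replicate number were taken as paired where all 3 correlations of their deviations from the subtype means were over 0.1. This held for splenic CD8+ with CD4+ DCs (0.162 to 0.375) and LN CD103+ with CD11b+ DCs (0.179 to 0.259). It also held for splenic CD4+ with LN CD11b+ DCs (0.197 to 0.266) and with LN CD103+ DCs (0.117 to 0.146). It did not hold for splenic CD8+ with LN CD103+ DCs (0.0374 to 0.086) or with LN CD11b+ DCs (0.0163 to 0.182), or for monocytes. The pairing comes from the data, as the labels do not say what a number marks. It was fitted only in the replicate block, and the main model treated all libraries as independent. The variance between replicate pairs was 4.96 to 50.7 times that of counting alone, and depth per library limits low genes such as Bak1. The members, lists, motifs and naming rule (in each of 6 comparisons, the 2 largest called changes each way among wider-list genes of at least 10 CPM, and for each member the 2 most correlated genes of at least 10 CPM) were chosen with earlier results of these data known.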

Additional observations from a re-analysis of the deposited data

Results flagged for a closer look

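The organ difference of Bcl2a1b differed between the lineages by a test of the difference itself, with an interaction of 1.69 on the log2 scale (edgeR's quasi-likelihood test, adjusted p = 0.00135). LN CD103+ DCs were 5.22-fold above splenic CD8+ DCs, and LN CD11b+ DCs 1.62-fold above splenic CD4+ DCs. All 3 libraries of each LN subtype lay above all 3 libraries of its splenic counterpart, so that both differences had one direction. The interaction stayed between 1.497 and 1.99 when each library was left out in turn, and was 1.79 without the 3 libraries that stood apart (adjusted p = 0.00467). The near copy Bcl2a1d passed the same test, at 1.15 (adjusted p = 0.0174), and lost its call without those 3 libraries (0.95, adjusted p = 0.084). The third copy, Bcl2a1a, missed the threshold at 0.99 (adjusted p = 0.0698). Mthfs, which shares 49.1% of the exon bases of Bcl2a1b and is counted with it there, had a similar pattern. Its means were 482 ± 56.6 CPM in LN CD103+ against 120 ± 17.6 CPM in splenic CD8+ DCs (SD, n = 3). In DC2 they were 422 ± 45.1 CPM in LN CD11b+ against 275 ± 51.9 CPM in splenic CD4+ DCs. The part of Mthfs in the Bcl2a1b interaction was not tested.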

How the results depend on the processing

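RLE size factors and edgeR's filterByExpr changed no call among the 72 values of the 10 members and the other A1 copies in 6 comparisons, DESeq2 added 3, no filter on low counts added 5 and limma on log2(TPM + 1) added 1 and removed 3. The number of members called in LN CD11b+ against splenic CD4+ DCs was 7, and 3 in a fit of only these subtypes or 4 without the 3 libraries that stood apart, an alternative added after seeing the data. For the interaction it was 1, and 3 with no filter, 2 with the replicate block and 4 without those libraries. In splenic CD8+ against CD4+ DCs it was 3, and 6 with the block, which added Bax, Bak1 and Pmaip1. The block also added Bcl2a1b between the LN DCs and changed no other call of a member in the paired comparisons among these 6, removing none. LN CD103+ against splenic CD4+ DCs, paired by the same rule, was not among the 6. Over all subtypes, 14 of 30 pairs of equal number correlated above 0.1, and 13 of 15 libraries correlated best with their own number.

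Leaving out each library in turn gave 9 to 10 calls for any difference (9 without monocyte replicate 2), 4 to 7 calls in LN CD11b+ against splenic CD4+ DCs (4 without LN CD11b+ DC replicate 1), 3 to 5 between the splenic DCs (5 without splenic CD4+ DC replicate 1), 1 to 2 for the interaction (2 without splenic CD8+ DC replicate 3, splenic CD4+ DC replicate 2 or LN CD11b+ DC replicate 1 or 2) and 5 to 8 in monocytes (5 without monocyte replicate 3). The reversals were all of values that missed the threshold. With 1 library left out, Bak1 ran from -0.39 to 0.048 in the DC1 organ comparison and from -0.12 to 0.76 in DC2, Bcl2l1 from -0.56 to 0.42 between the splenic DCs, Pmaip1 from -0.0587 to 0.27 between the LN DCs, and the interactions of Bcl2l11 and Bbc3 from -0.33 to 0.13 and from -0.67 to 0.72. Bcl2l1 between the splenic DCs was 0.0078 in a fit of only these subtypes, and Bid between the LN DCs -0.038 without the 3 libraries that stood apart. With the other A1 copies added, the Mcl1 share became 81.5% for monocytes, 22.1% for LN CD103+, 26.6% for LN CD11b+, 33.3% for splenic CD4+ and 39.8% for splenic CD8+ DCs. CPM per kilobase gives the same shares by construction. Apart from the changes that follow by construction, the cause was not tested.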
